A study of Caenorhabditis elegans with 2 samples.

Results

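The precuticle and ZP-domain matrix genes examined here are 10 genes of Caenorhabditis elegans whose products build or line apical extracellular matrices: noah-1, noah-2, fbn-1, let-653, cut-6, lpr-1, lpr-3, sym-1, let-4 and dpy-1. They were taken as a named list from the 19973 nuclear protein-coding genes of the Ensembl annotation of WBcel235, and all 10 names were found in it. The list was chosen with earlier results of these data known, so its shares beside those of all coding genes are descriptive only. For each gene, every candidate binding region with its summit between 3 kb upstream of the 5′ end and the 3′ end was collected, a stretch called the locus. Binding of ELT-3, a GATA-type zinc-finger factor of the epidermis, was assayed by ChIP-seq, the sequencing of DNA immunoprecipitated with a chromatin protein, in 2 libraries of whole first-stage (L1) larvae, named biological replicates 1 and 3. The larvae, of mixed sex and unknown age, belonged to strain OP75, which carries unc-119(ed3) III and the transgene wgIs75. Per a note on replicate 3, that transgene stably adds ELT-3 with GFP-FLAG at its C terminus. The antibody field reads elt-3 while the description names eGFP-elt-3, so what the antibody recognised is not settled by the labels. Neither the promoter nor the copy number of the transgene is given. There was no other genotype, stage or factor, so no groups could be contrasted. All values below describe where the factor was recovered and not whether a gene was expressed.

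Before and between molts, epidermal cells and narrow epithelial tubes are covered by a precuticle, a transient apical matrix that is laid down ahead of the collagen cuticle and later shed or remodelled. Zona pellucida (ZP) domain proteins polymerise into much of this matrix, secreted lipocalins are thought to carry lipids within it, and proteins with extracellular leucine-rich repeats (eLRR) hold cells and matrix together. The same matrix shapes the embryo as it elongates and keeps the lumen of the excretory duct open.

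The deposited data give each library's candidate regions, those of the pooled libraries, and a thresholded list of peaks that passed the submitters' reproducibility step. Each region carries the peak caller's own signal, which has a different scale in each list, so lists are compared through rank, with 1 the strongest. There were 30000 regions of median width 350 bp in the pooled list, as many in that of replicate 1, and 24854 of median width 330 bp in that of replicate 3. Signals ran from 5.91 to 490 in the pooled list on nuclear chromosomes, and from 34.2 among the thresholded peaks. All 2916 nuclear thresholded peaks were also pooled regions, and the 5 at the matrix genes had the same rank in both lists. The thresholded list thus held the strongest pooled regions, at least down to the deepest of these ranks, 2535. A place in it did not require a replicate 3 region, which 58.6% of its nuclear peaks overlapped. The −log10 column, taken here as that of the q-value, reached a ceiling of 3.86 in the pooled list, 3.96 in replicate 1 and 2.48 in replicate 3. Reads per region are not part of the lists, which leaves the depth of the libraries unknown, and intervals cover the counting of regions only.

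A thresholded peak was found at noah-1, noah-2, fbn-1, sym-1 and let-4, which had 1 each, and none was found at let-653, cut-6, lpr-1, lpr-3 or dpy-1. These 5 of 10 genes compare with 16.7% of all coding genes under the same rule. All 5 summits lay upstream of the gene, at 50 to 2314 bp from the 5′ end, and none lay in the body of the matrix gene itself, although those of sym-1 and let-4 lay within other annotated genes. In a narrower 5′ window, reaching 1000 bp upstream and 500 bp downstream, 2 of 10 genes, noah-1 and sym-1, had a thresholded peak, against 9.40% of coding genes. The matrix loci are long, at 5.39 to 18.7 kb with a median of 7.87 kb, against a median of 5.03 kb over all coding genes. Among the longest coding loci, those of 6.63 to 106 kb, 24.2% had a thresholded peak, and 3 of the 7 matrix genes of that length did. The other rules were not split by locus length.

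Less strict rules drew in the other genes. All 10 had at least 1 pooled candidate region, as did 64.7% of coding genes. With a q-value of at most 0.01, which is a −log10 of 2 or more, 7 of 10 had a pooled region, against 28.8% of coding genes. Those 7 were the genes with a thresholded peak together with let-653 and lpr-3, and cut-6 fell just short at 1.97. Regions of both replicates that overlapped by at least 1 bp were found at 7 of 10 genes, against 29.9% of coding genes. This set was a different one, since let-653, lpr-3 and cut-6 had no such pair while lpr-1 and dpy-1 did.

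The libraries were then taken alone, and a region was called strong when it was among the 2940 of highest signal in its library, which is 9.80% of the list of replicate 1 and 11.8% of that of replicate 3. In replicate 1, 6 of 10 genes had a strong region, against 16.7% of coding genes, and they were noah-1, noah-2, fbn-1, lpr-3, sym-1 and let-4. In replicate 3, 5 of 10 did, against 15.8% of coding genes, and they were noah-2, fbn-1, lpr-1, lpr-3 and let-4. Strong regions of both libraries that overlapped each other were left at 2 of 10 genes, noah-2 and let-4, against 4.28% of coding genes. For fbn-1 and lpr-3 the strong regions of the 2 libraries lay in different places of the locus.

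**Figure D1:**
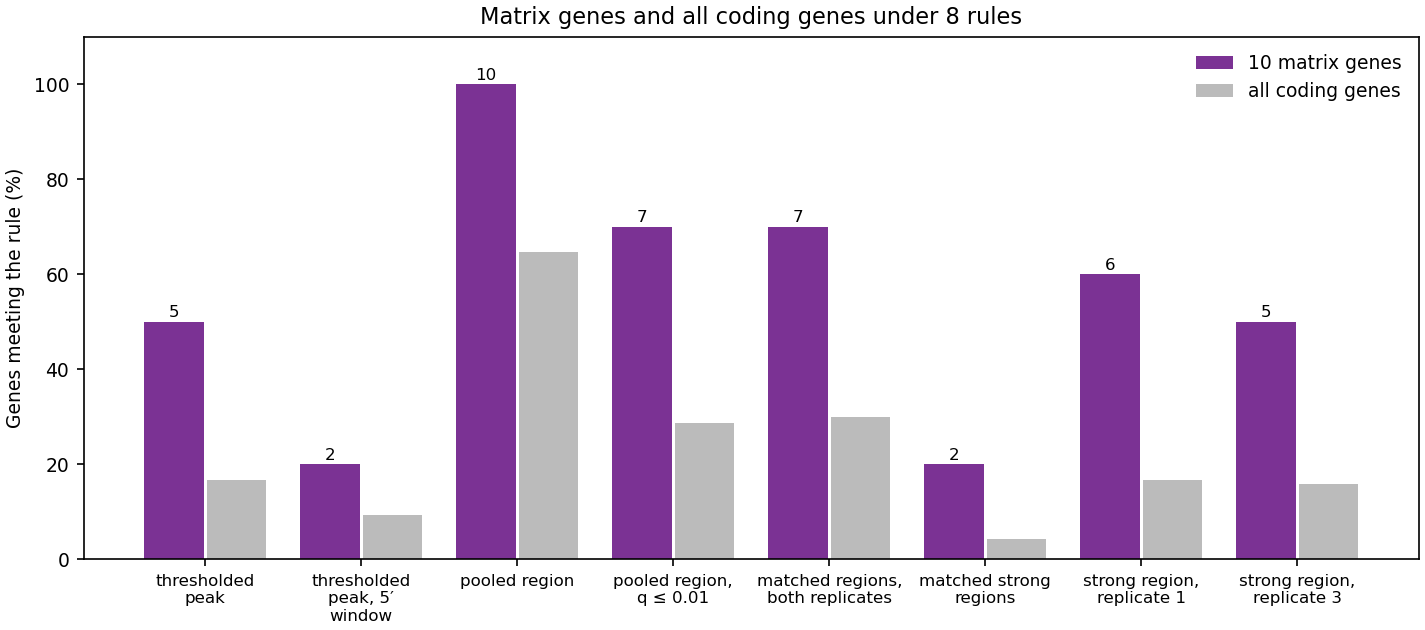
Share of genes (%) that met each of 8 rules, with the 10 matrix genes in purple, their number above the bar, and all 19973 coding genes in grey. The purple bar was the higher one under each rule, from 2 of 10 against 4.28% for overlapping strong regions to 10 of 10 against 64.7% for any pooled region. The bars are not matched for locus length, which had a median of 7.87 kb for the matrix genes and 5.03 kb for all coding genes.

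NOAH-1 and NOAH-2 are ZP-domain proteins, related to NompA of Drosophila, that the epidermis secretes into the embryonic sheath and the precuticle. noah-1 (WBGene00016422, chromosome I, 5874416 to 5878958, minus strand, build ce11) had its thresholded peak at 5879333 to 5879682, with the summit 550 bp upstream of the 5′ end. The peak had a signal of 49.1 and ranked 1719 of the pooled list. In replicate 1 the overlapping region had a signal of 44.5 and ranked 1881, and in replicate 3 it had a signal of 3.09 and ranked 13099 of 24854. The peak was thus near the top of replicate 1 and in the middle of replicate 3, although the summits of the pool and of replicate 3 were only 9 bp apart. The summit fell in an annotated non-coding RNA, C34G6.11, between coding genes. WGATAR is the sequence that GATA factors recognise (W is A or T, and R is A or G), and it was sought on both strands together with GAGAGA and with ACGCAG, motifs listed with earlier results of these data known. The noah-1 peak had 2 WGATAR sites within 50 bp of the summit and 4 in the whole region. The other 4 pooled regions of the locus ranked 9965 to 29362, and 3 of them were upstream.

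**Figure D2:**
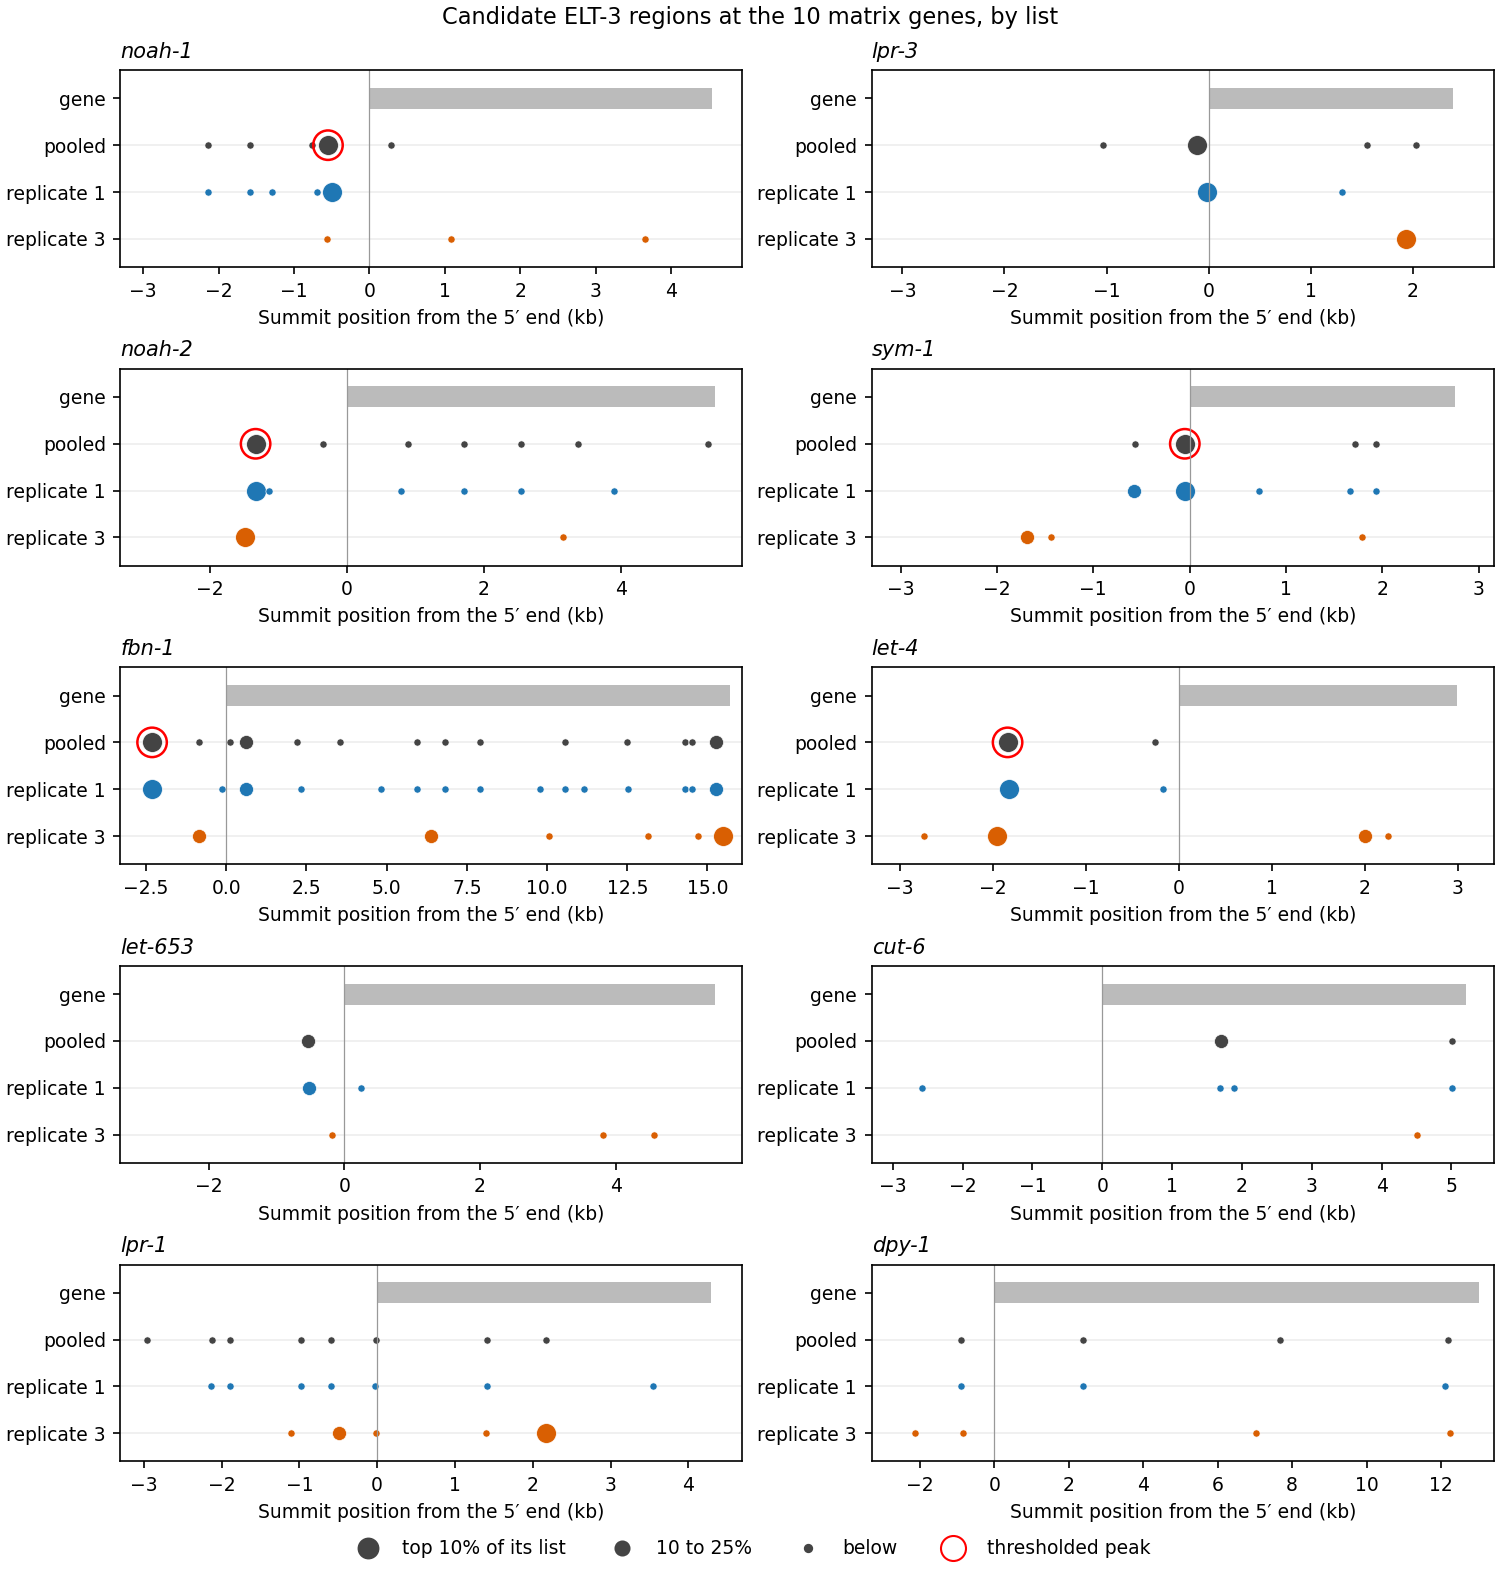
Candidate regions at the 10 matrix genes by the position of the summit relative to the 5′ end (kb, negative upstream), with the gene as a grey bar and a line of points each for the pooled list, replicate 1 and replicate 3. Larger points rank higher in their own list, and the red rings, the thresholded peaks, all lie upstream of 5 genes, from 50 bp at sym-1 to 2314 bp at fbn-1.

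noah-2 (WBGene00009926, chromosome IV, 14091254 to 14096626, plus strand) was one of the 2 matrix genes with overlapping strong regions in both libraries. Its thresholded peak, at 14089750 to 14090099, had a summit 1329 bp upstream of the 5′ end, between genes, and a signal of 46.1 at rank 1907 of the pool. Replicate 1 had the region at the same summit, with a signal of 44.1 at rank 1900. Replicate 3 had a region with a signal of 6.31 at rank 1661, which shared 182 bp with it and peaked 158 bp further from the gene. In both libraries it was the strongest region of the locus. No WGATAR site lay anywhere in the 350 bp of the pooled region. The summit lay on a run of alternating C and T, 19 bases long, that holds 7 overlapping matches to GAGAGA read on the opposite strand. The 101 bases around the summit are shown because they carry this repeat and no WGATAR site (ce11, sequence from RefSeq, chrIV:14089875-14089975, plus strand, with the GAGAGA matches in capitals). The letters GATA alone do occur in them, also beside the repeat.
noah-2: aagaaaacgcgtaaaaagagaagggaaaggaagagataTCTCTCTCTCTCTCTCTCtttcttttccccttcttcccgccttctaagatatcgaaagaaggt
The remaining 6 pooled regions of noah-2 ranked 10868 to 23490, and 5 of them were in the gene. An intronic region at rank 22150, with its summit 896 bp into the gene, held 4 WGATAR sites, 1 of them within 50 bp of the summit, so in the pool these GATA sites and the strongest signal of the locus were in different places.

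fbn-1 (WBGene00022816, chromosome III, 7625386 to 7641078, plus strand) encodes a fibrillin-like ZP-domain protein of the embryonic sheath, and it had more regions than any other matrix gene, 14 in the pool, 15 in replicate 1 and 6 in replicate 3, over the longest locus. The thresholded peak was the most distant of the 5, with its summit 2314 bp upstream (7622897 to 7623246). Its signal was 38.0 at rank 2535 in the pool and 40.8 at rank 2135 in replicate 1. Replicate 3 had no region there. What replicate 3 had upstream was a region 844 bp from the 5′ end, with a signal of 5.50 at rank 2806, and the pooled region at that place was nearly the last of its list, at rank 29983. The 2 libraries therefore placed their strong upstream signal about fbn-1 in different windows. An intronic region 602 bp downstream of the 5′ end, over the annotated non-coding RNA T04A6.7, followed the same split, at rank 5167 in the pool and 4201 in replicate 1, with none in replicate 3. At the far end of the gene both libraries had a region. The pooled summit, in the 3′ UTR 15258 bp downstream of the 5′ end, had a signal of 22.5 at rank 4871, replicate 1 had 16.2 at rank 6447, and replicate 3 had its best region of the locus, 7.04 at rank 1050. The summit of replicate 3 was 222 bp further on, and the 5′ end of upp-1 was nearer to these summits than that of fbn-1.

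Sequences from both ends of the fbn-1 locus are shown because the strongest pooled region had no motif match at its centre and the 3′ UTR region did. The 101 bases around the thresholded summit (ce11, chrIII:7623022-7623122, plus strand) held none of the 3 motifs searched and so have no capitals, although 1 WGATAR site lay elsewhere in the 350 bp region, whereas the 26 bases from the 3′ UTR (chrIII:7640602-7640627, plus strand) held 2 WGATAR sites, in capitals, facing each other on opposite strands. The overlapping region of replicate 3, its strongest at fbn-1, had 1 WGATAR site within 50 bp of its own summit and 4 in all.
fbn-1 upstream: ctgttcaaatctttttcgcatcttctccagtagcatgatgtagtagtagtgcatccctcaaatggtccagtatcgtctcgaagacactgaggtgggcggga
fbn-1 3′ site: tttcTTATCActgcacTGATAAgaaa
The other 11 pooled regions of fbn-1 ranked 9146 to 29983, and 9 of those had their summit in a coding exon or an intron more than 2 kb into the gene.

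let-653 (WBGene00002827, chromosome IV, 11885613 to 11891082, plus strand) encodes a ZP-domain and PAN-domain protein that lines the excretory duct and the vulval lumen. It had the fewest regions of the 10 in the pool, a single one whose summit lay 532 bp upstream (11884906 to 11885255), and 3 in replicate 3. That region had a signal of 25.1 at rank 4306 and a −log10 q of 3.46. Replicate 1 gave 23.8 at rank 4307, with the summit 8 bp away. Replicate 3 had no region over this place. Its upstream region lay closer to the gene, 184 bp from the 5′ end, with a signal of 3.55 at rank 9899, and its best region was in an intron 3808 bp downstream, at rank 7838. So no regions of the 2 libraries overlapped at let-653, although the upstream ones adjoined. That of replicate 1 ended at 11885263 and that of replicate 3 began at 11885264. The windows of 101 bases around both upstream summits are given because they differ in the same respect (ce11, plus strand, chrIV:11885031-11885131 for the pool and chrIV:11885379-11885479 for replicate 3). The weaker one of replicate 3 holds a WGATAR site, in capitals, and the stronger one of the pool holds none in these 101 bases.
let-653 pooled: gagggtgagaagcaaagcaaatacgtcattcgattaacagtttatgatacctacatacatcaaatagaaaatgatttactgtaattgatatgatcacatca
let-653 replicate 3: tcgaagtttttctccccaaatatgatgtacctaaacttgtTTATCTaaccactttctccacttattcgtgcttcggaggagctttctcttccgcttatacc

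cut-6 (WBGene00000853, chromosome III, 10911460 to 10916665, plus strand) encodes a cuticlin, a ZP-domain protein of the insoluble cuticle. It had no pooled region upstream of its 5′ end. Its strongest region was intronic, 1697 bp downstream, with a signal of 18.1 at rank 6264 in the pool and 13.5 at rank 7978 in replicate 1. Replicate 3 had a single region, also intronic but 4507 bp downstream, with a signal of 2.99 at rank 13927. No summit of cut-6 in any list had a WGATAR site within 50 bp. The gene upstream of cut-6 is unc-119, the gene mutated in the strain, and a replicate 1 region lay in its 3′ UTR, 2578 bp upstream of cut-6, with a signal of 4.88 at rank 29601, near the end of the list.

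Among the lipocalins, LPR-3 is a component of the precuticle itself. lpr-3 (WBGene00012261, chromosome X, 11057401 to 11059793, plus strand) just missed the thresholded list. Its best pooled region, with the summit 117 bp upstream (11057109 to 11057458), had a signal of 33.6 at rank 3008, and the lowest signal in the thresholded list was 34.2. In replicate 1 the overlapping region had a signal of 32.6 at rank 2899, with its summit 18 bp upstream of the 5′ end. In replicate 3 nothing lay at the 5′ end, and the single region of the locus was in coding sequence 1934 bp downstream, with a signal of 6.07 at rank 1940. The pooled region at that downstream place had a signal of 6.92 at rank 24707, and replicate 1 had none. lpr-3 was thus strong in both libraries at places about 2 kb apart. Downstream of lpr-3 on the same strand are lpr-6, lpr-5 and lpr-4, lipocalin genes outside the 10, and both libraries had overlapping regions there. A thresholded peak 997 bp upstream of lpr-5, which also lies within the lpr-6 locus, had a signal of 40.7 at rank 2315 in the pool, rank 2792 in replicate 1 and rank 696 in replicate 3. The thresholded peak 186 bp upstream of lpr-4 had a signal of 45.2 at rank 1974 in the pool, rank 2871 in replicate 1 and rank 156 in replicate 3. The windows at lpr-3 and lpr-4 are set side by side because both summits are close to a 5′ end and had WGATAR sites within 50 bp, 1 at lpr-3 and 3 at lpr-4 (ce11, plus strand, chrX:11057234-11057334 and chrX:11064890-11064990). Capitals mark WGATAR and GAGAGA matches on either strand, and those of lpr-4 overlap or adjoin in its middle run.
lpr-3: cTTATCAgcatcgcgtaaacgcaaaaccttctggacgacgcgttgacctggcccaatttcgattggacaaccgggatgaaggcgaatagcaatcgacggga
lpr-4: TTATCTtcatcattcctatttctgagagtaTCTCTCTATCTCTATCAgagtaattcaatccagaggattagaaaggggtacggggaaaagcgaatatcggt

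LPR-1 is a secreted lipocalin that keeps the junction between the excretory duct and pore cells intact. lpr-1 (WBGene00002393, chromosome I, 557375 to 561671, plus strand) had many regions and few strong ones: 8 in the pool, 7 in replicate 1 and 5 in replicate 3. Its best pooled region, in the 3′ UTR of the upstream gene ptr-21 and 979 bp from the 5′ end of lpr-1, had a signal of 12.9 at rank 9668. The best of replicate 1 ranked 10364. Replicate 3 was different here, with a region in coding sequence 2170 bp downstream of the 5′ end that had a signal of 7.67 at rank 774, its highest rank at any of the 10 genes. The pooled region at that place ranked 12959 and replicate 1 had none. lpr-1 also had the region closest to a 5′ end, with its summit 11 bp upstream and 1 match to each of the 3 motifs searched within 50 bp. It was present in all 3 lists but weak in each, at rank 20593 in the pool, 28743 in replicate 1 and 23596 in replicate 3.

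let-4 and sym-1 encode proteins built of extracellular leucine-rich repeats, and they are neighbours on chromosome X in the same orientation, inside an intron of C44H4.4 on the opposite strand. LET-4 is a transmembrane protein that organises apical matrix and junctions in the excretory duct and epidermis. let-4 (WBGene00002282, 14577935 to 14580923, plus strand) had the strongest region of all 10 genes in the pool and in replicate 1. This thresholded peak, at 14575921 to 14576270 with its summit 1839 bp upstream, had a signal of 66.4 at rank 954 in the pool and 58.4 at rank 1121 in replicate 1. Replicate 3 had a region with a signal of 6.08 at rank 1929 that shared 224 bp with it. The summit lay in the 3′ UTR of lron-1, another eLRR gene, so the peak counts for both genes and the lists do not say to which it belongs. There was no WGATAR site within 50 bp of the summit and 1 in the region. Nearer to let-4, a pooled region with its summit 251 bp upstream and 1 WGATAR site within 50 bp had a signal of 12.7 at rank 9942, with rank 10368 in replicate 1 and no region in replicate 3.

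SYM-1 is a secreted eLRR protein that acts with others to attach body muscle to the cuticle. sym-1 (WBGene00006366, 14581622 to 14584378, plus strand) had the thresholded peak closest to a 5′ end, with its summit 50 bp upstream (14581397 to 14581746). It had a signal of 38.2 at rank 2515 in the pool and 33.1 at rank 2839 in replicate 1, with the summit at the same base. Replicate 3 had no region there, and its best region of the sym-1 locus was inside let-4, 1683 bp upstream of sym-1, with a signal of 4.62 at rank 4909. A pooled region 571 bp upstream of sym-1 repeated the split, with a signal of 15.4 at rank 7655, rank 5756 in replicate 1 and nothing in replicate 3. Replicate 3 thus gave no region to the first kilobase upstream of sym-1. The 100 bases up to the 5′ end are shown because 3 kinds of match stand together at the summit (ce11, chrX:14581522-14581621, plus strand). In capitals are an ACGCAG match and, after 1 base, a run in which 5 overlapping GAGAGA matches end in the WGATAR site AGATAA, which shares bases with the last of them.
sym-1: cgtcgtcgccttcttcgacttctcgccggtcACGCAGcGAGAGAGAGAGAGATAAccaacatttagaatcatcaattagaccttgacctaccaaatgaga

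dpy-1 (WBGene00001063, chromosome III, 2034988 to 2048007, minus strand), whose mutants have short and stout bodies, ranked lowest of the 10 in the pool and in replicate 1. In replicate 3 its best region, at rank 12019, stood above those of noah-1 and cut-6. Its best pooled region was intronic, 2371 bp downstream of the 5′ end, with a signal of 9.97 at rank 14467. That summit was 603 bp from another annotated transcript start of dpy-1. None of the regions of dpy-1 in any list had a q-value of 0.01 or less. A region 892 bp upstream with 1 WGATAR site near its summit was found in both libraries, with a signal of 9.56 at rank 15466 in the pool, rank 22813 in replicate 1 and rank 24646 of 24854 in replicate 3. Presence in both lists was therefore no sign of strength at dpy-1, since the region was among the last that replicate 3 reported.

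**Figure D3:**
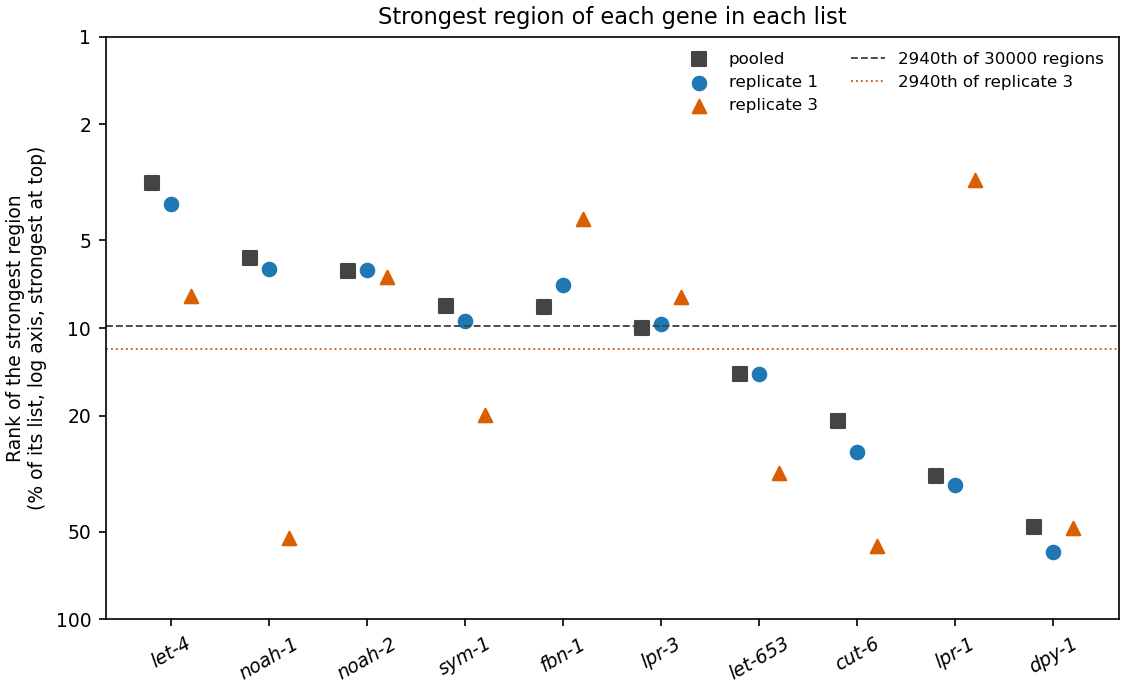
Rank of the strongest region of each matrix gene as a percentage of its list (log axis, strongest at the top), ordered by the pooled list, with squares for the pool, circles for replicate 1 and triangles for replicate 3; the lines mark the 2940th region. Squares and circles stay close for each gene, while replicate 3 stands far below them at noah-1 (52.7%) and far above them at lpr-1 (3.11%).

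Ordered by the strongest pooled region, let-4 stood first at 3.18% of the list, followed by noah-1 at 5.73%, noah-2 at 6.36%, sym-1 at 8.38% and fbn-1 at 8.45%. Below the threshold came lpr-3, just past the line at 9.80%, then let-653 at 14.4%, cut-6 at 20.9%, lpr-1 at 32.2% and dpy-1 at 48.2%. The plot of strongest regions shows how far the libraries parted. In noah-2 they were close, at 6.33% in replicate 1 and 6.68% in replicate 3, and in lpr-3 they stood at 9.66% and 7.81%. At noah-1 they were 6.27% and 52.7%, and at lpr-1 34.5% and 3.11%. For 8 of the 10 genes, all but noah-2 and dpy-1, the libraries differed by more than the gene differed from its nearest neighbour in the pooled order, so that order was not resolved. The strongest regions of the locus in the 2 libraries overlapped at noah-1, noah-2 and let-4 and at no other matrix gene. The share of all coding genes with such an overlap was not computed.

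The pooled regions at these genes overlapped replicate 1 more often than replicate 3, at shares close to those of the whole list. Of the 51 pooled regions, 41 overlapped a region of replicate 1, against 80.8% of all nuclear pooled regions, and 18 overlapped one of replicate 3, against 36.4%. All 5 thresholded peaks overlapped a replicate 1 region, against 99.8% of all, and 3 of them, at noah-1, noah-2 and let-4, overlapped a replicate 3 region, against 58.6%. Replicate 3 had 30 regions in the loci, 2 of which lay inside let-4 and counted for sym-1 too, and 13 of the 30 overlapped a replicate 1 region, against 30.7% of all regions of replicate 3. What part differences in library preparation had in this was not tested. The labels record sonication with a microtip for replicate 3 and a size range instead for replicate 1, and give different sources of the worms.

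Regions were also more closely packed at most of the matrix genes than over coding genes in general. In the pool, the matrix loci had a median of 0.679 regions per kb, against 0.221 over all coding genes, and 9 of 10 were above that median. Replicate 1 gave 0.575 against 0.218, with 9 of 10 above. Replicate 3 gave 0.338 against 0.224, with 8 of 10 above. lpr-1 was the densest in each list, at 1.10, 0.959 and 0.685 regions per kb in the pool, replicate 1 and replicate 3, and 97.7%, 95.7% and 95.8% of coding genes were less dense. Part of this lay within the upstream gene ptr-21, in the pool the regions 2961, 2122, 1886 and 979 bp upstream of lpr-1. In replicate 1 it was those at 2138, 1893 and 975 bp, and in replicate 3 that at 1113 bp. let-653 was the least dense in the pool, at 0.118. let-4, with the strongest peak of the pool, had 0.334 regions per kb there and in replicate 1, and 0.668 in replicate 3, where only lpr-1 was denser among the 10.

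**Figure D4:**
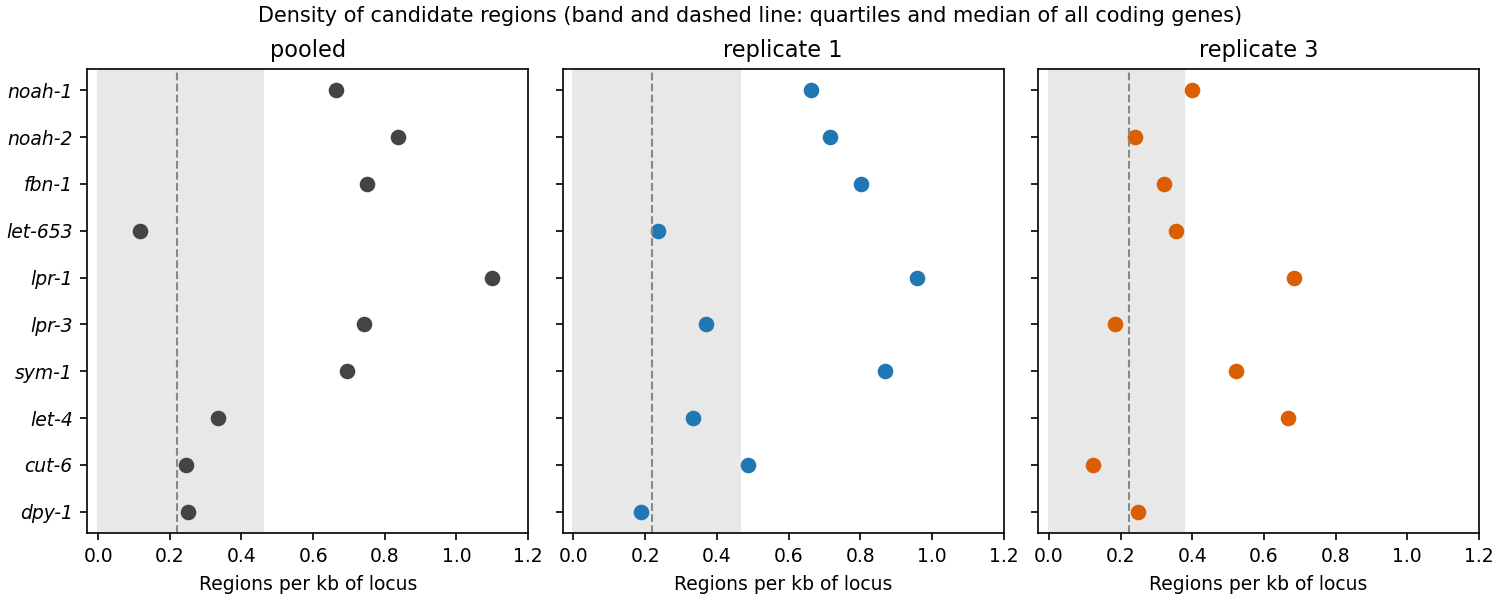
Candidate regions per kb of locus for each matrix gene in the pooled list, replicate 1 and replicate 3; the dashed line is the median of all coding genes and the grey band lies between their lower and upper quartiles. In the pool 9 of 10 genes lie right of the line at 0.221 regions per kb, with let-653 at 0.118 to its left.

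The sequence at the summits was set beside equally long windows centred 500 bp to the left and right. A WGATAR site lay within 50 bp of the summit in 11 of the 51 pooled matrix regions, which is 21.6% (exact Clopper-Pearson 95% interval 11.3 to 35.3), against 23.3% of all 29973 nuclear pooled regions. The flanks of the matrix regions had a site in 20.6% of windows, so the summits were not distinguishable from their surroundings at this number of regions. Among the thresholded peaks, 2 of 5 at the matrix genes, those of noah-1 and sym-1, had a site within 50 bp, against 34.8% of all 2916 nuclear thresholded peaks. A GAGAGA match lay within 50 bp of 2 of the 5 matrix peaks, those of noah-2 and sym-1, against 25.1% of all thresholded peaks. The flanks had a match in 0 of 10 windows at the 5 and in 5.59% at all thresholded peaks. Of the 51 pooled matrix regions 6 had a GAGAGA match (11.8%), against 10.7% of all pooled regions. In their flanks the shares were 5.88% and 5.54%. ACGCAG was found at 2 of the 51 (3.92%), at lpr-1 and sym-1, against 4.37%. The median GC content of the windows was 45.5% for the 5 thresholded matrix peaks and 42.6% for all thresholded peaks, and 39.6% for the pooled matrix regions and 36.6% for all pooled regions. A match describes the letters only, and the peaks of let-4, noah-2 and fbn-1 show that regions of high rank lacked WGATAR at their centre.

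**Figure D5:**
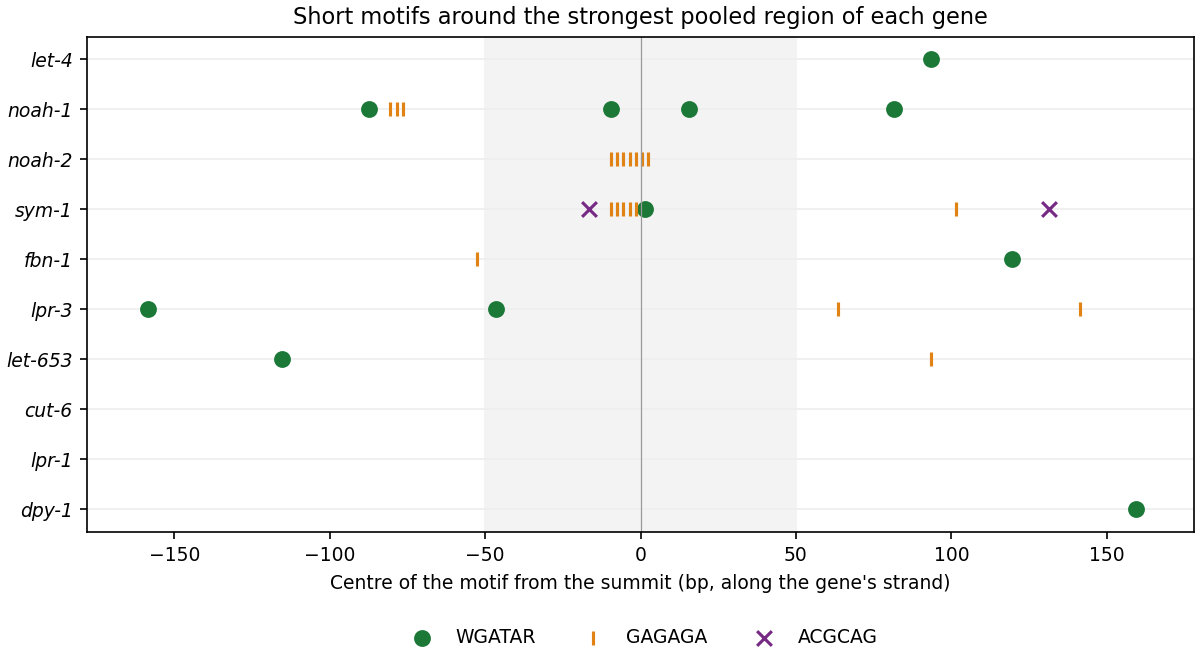
Positions of WGATAR (circles), GAGAGA (ticks) and ACGCAG (crosses) in the strongest pooled region of each matrix gene, as the distance in bp from the summit along the strand of the gene; the grey band is the 50 bp to each side that was counted. Only noah-1, sym-1 and lpr-3 have a WGATAR site in the band, while noah-2 has a row of overlapping GAGAGA matches at the summit.

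Other genes of the same families and of the attachment structures beneath the matrix were counted under the same rule. Of 36 other genes with a ZP domain, mostly cuticlins and cuticlin-like genes, 3 had a thresholded peak, or 8.33%, which is under the 16.7% of all coding genes. They were cutl-18 (84.4 at rank 552), cutl-28 (55.7 at rank 1345) and cutl-11, whose peak of lower signal is named for completeness after its value was seen. None of these 3 peaks lay in the 5′ window. In replicate 3 alone, 9 of the 36 had a strong region, against 15.8% of coding genes. In replicate 1 alone 2 of the 36 did, against 16.7% of coding genes. Among the 10 genes, the ZP-domain genes noah-1, noah-2 and fbn-1 had a thresholded peak and let-653 and cut-6 had none, and the difference from the other ZP-domain genes was not tested. Of 5 other lipocalin genes, lpr-4, lpr-5 and lpr-6 had a thresholded peak, with 1 peak shared by lpr-5 and lpr-6. Of 17 other eLRR genes 4 did, led by lron-10, with a signal of 71.6 at rank 804 and its summit 45 bp upstream, and by lron-1, whose peak is that of let-4. The other 2, named after their values were seen, were lron-8 and pan-1.

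The fibrous organelles, hemidesmosome-like structures that tie muscle through the epidermis to the matrix, had more. Of 8 such genes 7 had a thresholded peak, at a median locus length of 19.1 kb. The share was 16.7% over all coding genes and 24.2% over coding loci of 6.63 to 106 kb. mup-4, a transmembrane protein that faces the matrix, had 2 thresholded peaks, and its best, 596 bp downstream of the 5′ end, had a signal of 93.2 at rank 433 in the pool, the same rank in replicate 1 and rank 1582 in replicate 3. vab-10, the spectraplakin of these structures, had 4 over a locus of 60.6 kb, with a best signal of 65.6 at rank 986. Unlike the peaks of the matrix genes, which were all upstream, the best peaks of mup-4 and vab-10 were inside the gene. let-805, named after its value was seen, had its best peak 1740 bp upstream, and the other genes of the list with a peak had theirs inside. What part the length of the loci had in this was not tested.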

How the data were processed

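ELT-3 ChIP-seq regions of 2 libraries (biological replicates 1 and 3, whole L1 larvae) were analysed as deposited. Per the deposited manifest, each candidate list came from the reads aligned for 1 library or for the pool, with a control file that the libraries share, and the thresholded list was derived from all 3 candidate lists. The programs that aligned reads and called peaks were not given in the sources used. The deposited signal column is the peak caller's strength of a region, and the deposited −log10 column is that of its q-value. The signal and −log10 values are the authors' and were used only to rank or filter regions. Lists in build ce11 were used, and those in ce10 were not used here. Mitochondrial regions were left out.

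Genes came from Ensembl release 115 and sequence from RefSeq, both of WBcel235, the assembly named ce11. A region belonged to a gene when its summit lay from 3000 bp upstream of the 5′ end of the longest annotated extent to the 3′ end. Overlap meant at least 1 bp. Motifs were sought on both strands. The gene names given are the 10 members, the coding gene with the nearest 5′ end to each thresholded member peak (the member itself in each case), and the 2 of each other list with the highest thresholded signal. The members and lists were chosen with earlier results of these data known. With 1 group of 2 libraries no p-value was computed, and agreement between the libraries is the only check. Python 3.11.15, numpy 2.4.6, pandas 2.3.3, scipy 1.17.1 and matplotlib 3.10.9 were used, and assignment and motif counts were checked on simulated data.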

Additional observations from a re-analysis of the deposited data

How the results depend on the processing

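Over 8 results and 37 alternatives, 21 values stayed within the spread allowed and 16 moved. The 5 genes with a thresholded peak became 2 with 1 kb upstream (11.7% of coding genes), 0 with gene bodies alone (3.57%) and 1, let-4, with peaks above the median signal (9.19%, about the same share). They became 3 with peaks that a replicate 3 region overlaps (10.2%), and were 3 of 7 among loci of 6.63 kb or more (24.2%), the last 2 being alternatives added after seeing the data. Without replicate 3 they were 6 (16.7%). Without replicate 1 they were 5 (15.8%), and lpr-1 and lpr-3 stood in for noah-1 and sym-1. The count in the 5′ window, 2 (noah-1 and sym-1), was 1 at 500 bp upstream to 250 bp downstream (7.26%). It was 4 at 2000 bp upstream to 500 bp downstream (12.4%) and 3 without replicate 3 (9.42%). Without replicate 1 it was 1 (5.87%), which was fbn-1, and neither noah-1 nor sym-1. The 7 genes with overlapping regions of both replicates became 3 with summits within 100 bp (17.8%) and 2 with strong regions (4.28%). With 1 kb upstream, genes with a strong region became 3 in replicate 1 (11.7%) and 3 in replicate 3 (11.1%). The share of pooled regions with WGATAR, 21.6%, became 3.92% for GATAAG, against 6.05% of all pooled regions and 5.88% of the flanks. Within 25 bp it became 9.80%, against 11.8% of the flanks. Over the 5 thresholded peaks, added after seeing the data, it was 40.0%, against 34.8% of all thresholded peaks and 40.0% of the flanks of the 5. Replicate 1 alone gave 19.6%, against 22.5% of flanks, and replicate 3 alone 23.3%, against 21.7%. The median density was 0.338 to 0.575 per kb with either library alone, the lower without replicate 1. The 5 kb, 1 bp overlap and nearest 5′ end rules kept 5 genes, against 20.7%, 17.6% and 9.99% of coding genes. The causes were not tested. No paired analysis was possible because there is only 1 group of 2 libraries. Unknown depth limits every absence stated for replicate 3, whose list was the shorter.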
